A study of Homo sapiens with 2 samples.

Results

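The genes of glutamine transport and glutaminolysis were read in HSC-3, an established cell line from a human squamous carcinoma of the tongue, after FIN56 or its vehicle. FIN56 is a compound that brings on ferroptosis, an iron-dependent death by lipid peroxidation, through loss of the lipid peroxidase GPX4 and of coenzyme Q10. A fixed list of 9 genes, matched by gene symbol, was taken from the 60616 genes in the deposited tables. The carriers are SLC1A5, SLC38A1, SLC38A2 and SLC7A5, and the enzymes are GLS2, GLUD1, GOT1, GOT2 and GLUL. There was 1 library of cells given FIN56 at 1 µM for 48 h and 1 library of cells given 0.1% DMSO, whose label states no time. Both came from the same line, grown in DMEM with serum, and both libraries were made with a stranded mRNA kit. Because each condition has 1 library, no test between conditions was possible, and a difference between the libraries cannot be told apart from a difference between any 2 cultures of this line.

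Glutamine enters cells mainly through sodium-coupled carriers, among them SLC1A5, which exchanges neutral amino acids, and SLC38A1 and SLC38A2, which take glutamine up on a net basis. SLC7A5, paired with the heavy chain SLC3A2, lets glutamine out in exchange for leucine and other large neutral amino acids. Glutaminase turns glutamine into glutamate, and glutamate dehydrogenase or the aminotransferases turn glutamate into 2-oxoglutarate for the TCA cycle, a route known as glutaminolysis, while GLUL runs the first step backwards. Glutaminolysis is known to feed lipid peroxidation in ferroptosis brought on by loss of cystine, and glutamate is also used to make glutathione.

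The libraries held 70184517 (DMSO) and 73062209 (FIN56) expected counts, of which mitochondrially encoded genes took 4.77% and 5.75%. The members together took 0.344% and 0.366%. The cells carried squamous epithelial markers, 10 of 10 reaching 1 FPKM in each library, which does not identify the line, and these had a summed FPKM of 6084 with DMSO and 5506 with FIN56. Of the markers of other cells, PTPRC and CD3E of leukocytes had no count, and the 3 endothelial markers together had an FPKM of 0.08 in each library. COL1A1 of the fibroblast list (FPKM 4.25 and 2.19) and CD14 of the leukocyte list (3.62 and 5.15) were the other-cell markers above an FPKM of 1 in both. The values below are FPKM, which is scaled for library size and for gene length, so that levels can be compared between genes. The ratio is the FPKM of the FIN56 library over that of the DMSO library. Beside it stands the ratio of expected counts scaled by library totals, with an exact 95% Clopper-Pearson interval. Such an interval reflects the sampling of reads alone, and since no molecular identifiers were used, reads are not independent molecules.

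None of the 9 members had an FPKM ratio of 1.5 or more or of 1/1.5 or less. The study used 1.5 for higher genes, and its inverse was added here for lower ones. Over all 24454 genes detected in both libraries (FPKM above 0), 14.7% had a ratio of 1.5 or more and 17.3% had a ratio of 1/1.5 or less. Among those with 100 or more expected counts over both libraries, a depth that 8 of the 9 members reach, the shares were 5.37% and 8.85%. Of the 4 carriers, SLC38A1, SLC1A5 and SLC38A2 were higher with FIN56 and SLC7A5 was level at a ratio of 1.01, with a median log2 ratio of 0.33. The 5 enzymes had a median log2 ratio of -0.03, with both aspartate aminotransferases lower, GLS2 higher on few reads, and GLUD1 and GLUL near level with a direction that flipped under other scalings. The median over the 9 genes was 0.01, beside 0.00 over all genes, and of the 9 genes 5 had a ratio above 1, beside 48.1% of all genes. A ratio of 1.2 or more was reached by 4 members (SLC38A1, SLC1A5, GLS2 and SLC38A2), against 28.2% of all genes, and a ratio of 1/1.2 or less by 1 member (GOT2), against 29.7%. The counting interval lay above 1 for 4 members (23.4% of all genes), below 1 for 2 members (23.1%) and included 1 for 3. Deeply read genes pass such an interval readily. Among the 14247 detected genes that had 100 or more expected counts over both libraries, it lay above 1 for 36.3% and below 1 for 35.7%, and 22.3% had an FPKM ratio of 1.2 or more and 23.5% one of 1/1.2 or less. Of the 8 members with that depth, 3 were at 1.2 or more and 1 at 1/1.2 or less.

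**Figure D1:**
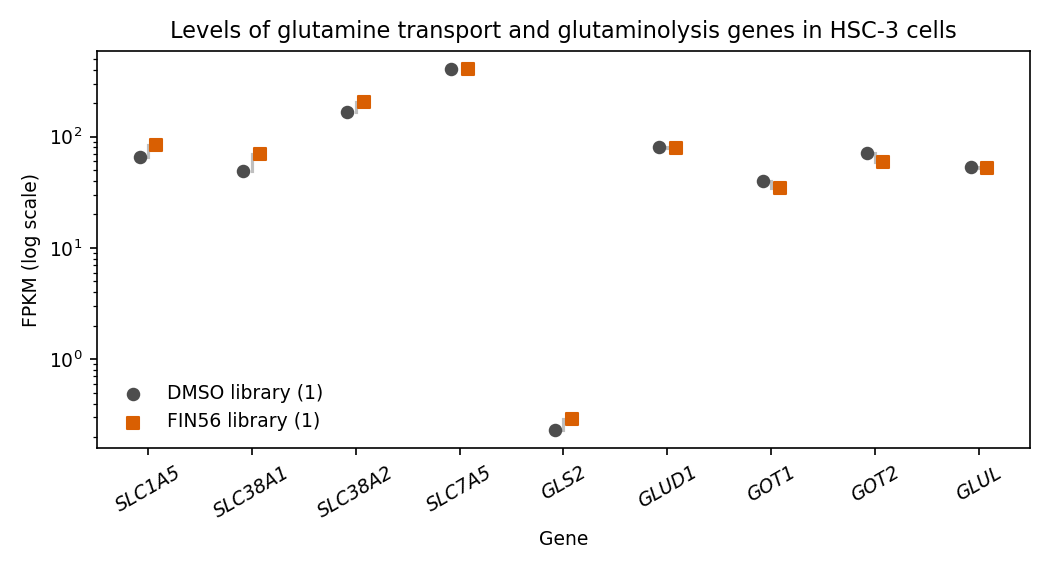
FPKM (vertical axis, log scale) of the 9 genes in the DMSO library (circles) and the FIN56 library (squares), 1 library each, with a grey line joining both values of a gene. SLC7A5 stood highest in both libraries (403 and 407), the other expressed genes lay between 34.63 and 206, and GLS2 was below 1 in both.

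The members differed widely in level. In the DMSO library the order by FPKM was SLC7A5 (403), SLC38A2 (168), GLUD1 (80.66), GOT2 (70.87), SLC1A5 (65.75), GLUL (53.11), SLC38A1 (48.9), GOT1 (40.07) and GLS2 (0.23). In the FIN56 library it was SLC7A5 (407), SLC38A2 (206), SLC1A5 (84.8), GLUD1 (79.16), SLC38A1 (69.38), GOT2 (58.68), GLUL (51.96), GOT1 (34.63) and GLS2 (0.29). SLC1A5 thus ranked 5 with DMSO and 3 with FIN56, and SLC38A1 ranked 7 and 5. The exact Poisson 95% intervals of neighbours in these orders did not overlap in either library, and the spread between cultures is not known. Summed over the 3 sodium-coupled carriers, the level was 282 FPKM with DMSO and 360 FPKM with FIN56, a ratio of 1.28. Over all 4 carriers it was 685 FPKM and 767 FPKM, a ratio of 1.12.

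All 9 genes lie on the minus strand (GRCh38, GENCODE release 44). The SLC38 genes are neighbours on chromosome 12, SLC38A1 at chr12:46183063-46270017 with 17 exons in its canonical transcript and SLC38A2 at chr12:46358188-46372773 with 16, separated by 88.2 kb. SLC1A5 (chr19:46774883-46788594) has 8 exons and SLC7A5 (chr16:87830023-87869507) has 10. GLS2 (chr12:56470944-56488414) has 18 exons, GLUD1 (chr10:87050202-87094843) 13, GOT1 (chr10:99396870-99430624) 9, GOT2 (chr16:58707131-58734342) 10 and GLUL (chr1:182378098-182392206) 7.

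The promoters of the members were searched on both strands for TGATGCA, the core of the element through which ATF4 answers amino acid shortage, and for CACGTG, the E-box read by MYC and its relatives. RefSeq promoters (GRCh38.p14, 250 bases before to 50 after a start) were found for 9 of 9 members, 13 promoters in all. The core stood in 2 of the 13, those of GOT1 and of an inner start of SLC1A5, and in 2.63% of all 35116 promoters. The E-box stood in 2 of the 13, those of SLC7A5 and of another inner start of SLC1A5, and in 7.26% of all promoters. SLC1A5, which was higher with FIN56 (FPKM ratio 1.29), thus held both motifs at inner starts and neither at its outermost start. The inner stretches overlap annotated exons in part and are not printed. The sequences show the 250 bases before the start for the 2 SLC38 carriers that were higher with FIN56, neither of which holds a match (the SLC38A1 stretch lies inside its annotated gene, outside exons), and for SLC7A5 and GOT1, which do, with the match in capitals. They run 5′ to 3′ on the minus strand, from chr12:46267988-46268237 (SLC38A1), chr12:46372774-46373023 (SLC38A2), chr16:87869508-87869757 (SLC7A5) and chr10:99430625-99430874 (GOT1).
SLC38A1: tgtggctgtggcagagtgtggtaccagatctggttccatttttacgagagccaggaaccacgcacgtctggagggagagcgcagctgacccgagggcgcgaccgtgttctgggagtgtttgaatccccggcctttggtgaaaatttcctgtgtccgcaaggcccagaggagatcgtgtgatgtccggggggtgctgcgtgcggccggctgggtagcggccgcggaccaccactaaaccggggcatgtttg
SLC38A2: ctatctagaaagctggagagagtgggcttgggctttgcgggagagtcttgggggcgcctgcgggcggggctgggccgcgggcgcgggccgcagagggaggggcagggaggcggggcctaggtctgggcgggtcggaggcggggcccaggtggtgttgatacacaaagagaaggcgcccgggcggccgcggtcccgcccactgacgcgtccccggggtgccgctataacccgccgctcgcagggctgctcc
SLC7A5: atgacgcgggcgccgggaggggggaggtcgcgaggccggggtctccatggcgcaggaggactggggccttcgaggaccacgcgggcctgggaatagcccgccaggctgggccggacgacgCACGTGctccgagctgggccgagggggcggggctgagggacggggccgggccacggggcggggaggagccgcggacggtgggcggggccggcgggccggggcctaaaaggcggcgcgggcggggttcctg
GOT1: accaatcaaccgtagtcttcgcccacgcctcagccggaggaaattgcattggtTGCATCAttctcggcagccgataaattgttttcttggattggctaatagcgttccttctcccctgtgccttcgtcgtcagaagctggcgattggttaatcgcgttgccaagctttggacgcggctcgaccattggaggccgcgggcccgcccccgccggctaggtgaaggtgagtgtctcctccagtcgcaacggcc
The SLC7A5 match begins 130 bases before the start and the GOT1 match 197 bases before it, the latter as TGCATCA, the core read on the opposite strand. A match in letters is a description of the sequence, and binding was not measured. Only these windows were searched, so an element elsewhere in a gene, such as in an intron, would be missed.

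Among the carriers, SLC38A1 (ENSG00000111371) differed most. Its level was 48.9 FPKM with DMSO and 69.38 FPKM with FIN56, a ratio of 1.42, and its expected counts were 21536 and 30756. The count ratio was 1.37 with an interval of 1.35 to 1.4. Of the genes with at least 100 expected counts, 7.59% had an FPKM ratio as high or higher, so SLC38A1 stood in the upper part of the distribution and short of its end. Both expected counts are whole numbers, as they are where no read is divided between genes.

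SLC1A5 (ENSG00000105281), also called ASCT2, had an FPKM of 65.75 with DMSO and 84.8 with FIN56, a ratio of 1.29. Its expected counts were 11474 and 15702, with a count ratio of 1.31 (1.28 to 1.35). A ratio this high or higher was found for 13.9% of genes with at least 100 expected counts.

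SLC38A2 (ENSG00000134294), the carrier known to be induced when amino acids are short, had an FPKM of 167.72 with DMSO and 206.07 with FIN56, a ratio of 1.23. Its expected counts, 47473 and 55585, gave a smaller count ratio of 1.12 (1.11 to 1.14). The 2 measures differ because the effective length that divides the count was lower in the FIN56 library. The FPKM of SLC38A2 was 3.43 times that of SLC38A1 with DMSO and 2.97 times with FIN56.

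SLC7A5 (ENSG00000103257), known as LAT1, was the most abundant member and was level. Its level was 402.93 FPKM with DMSO and 407.11 FPKM with FIN56 (ratio 1.01). The expected counts were 120192 and 126591 (count ratio 1.01, 1.004 to 1.02), an interval just above 1. A difference of this size is below what the scaling can resolve, since the summed FPKM of the libraries alone sets TPM ratios 2.21% above FPKM ratios, apart from the rounding of low values. Its partner SLC3A2, which holds the light chain at the cell surface, had an FPKM of 401.56 and 438.33, a ratio of 1.09. The FPKM of SLC7A5 was thus 1.00 times that of SLC3A2 with DMSO and 0.929 times with FIN56.

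**Figure D2:**
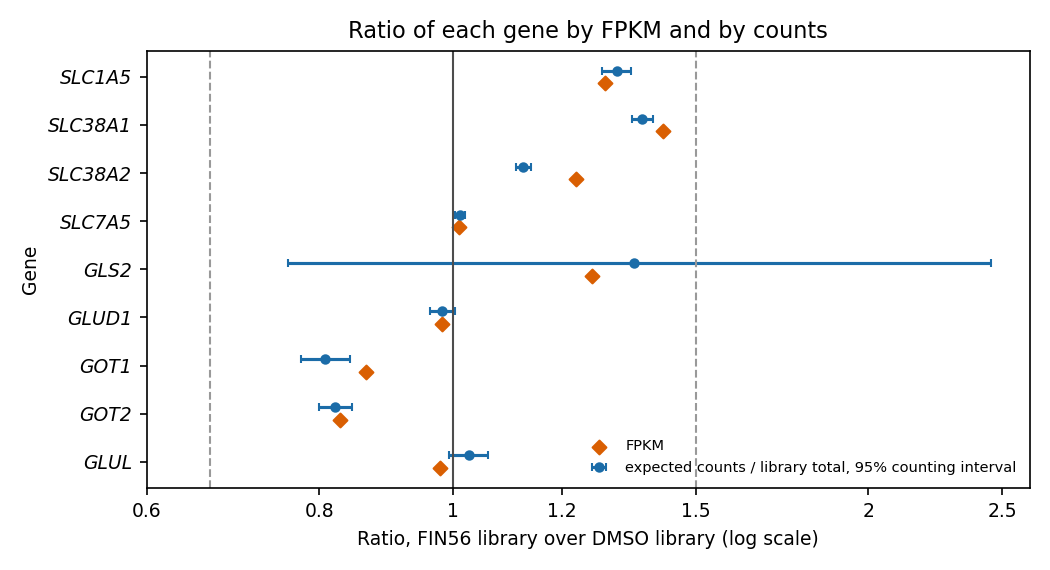
Ratio of the FIN56 over the DMSO library (horizontal axis, log scale) for each gene, by FPKM (diamonds) and by expected counts over library totals (circles, bars are exact 95% counting intervals), with dashed lines at 1.5 and 1/1.5. SLC1A5, SLC38A1 and SLC38A2 lie right of 1, GOT1 and GOT2 left of it, and the bar of GLS2 runs from 0.759 to 2.45.

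GLS2 (ENSG00000135423), the liver-type glutaminase and a known p53 target, was barely expressed. The glutaminase step as a whole was not analysed here. Its level was 0.23 FPKM with DMSO and 0.29 FPKM with FIN56, and its expected counts were 21.85 and 31.47. The count ratio of 1.35 had an interval of 0.759 to 2.45, so no difference was detectable at this depth. Its exons are also overlapped on the opposite strand by SPRYD4, which had 1129 and 1166 counts, far more than GLS2 itself. The kit keeps the strand of the RNA, but whether the counting used it is not given in the sources used here.

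GLUD1 (ENSG00000148672), the mitochondrial glutamate dehydrogenase that releases ammonia from glutamate, was level. Its level was 80.66 FPKM with DMSO and 79.16 FPKM with FIN56 (ratio 0.981), and its expected counts of 17454 and 17856 gave a count ratio of 0.983 (0.962 to 1). The interval included 1, and the direction flipped under some other scalings. GLUD2, an intronless copy of GLUD1, had 55.3 and 60.53 counts. The 4 numbered GLUD1 pseudogenes in the tables held 0.418% of the GLUD1 count with DMSO and 0.431% with FIN56, nearly all of it at GLUD1P3, with 71 and 76 counts. Counts of GLUD1 were not whole numbers, as they are where reads are divided between near-identical copies, and its value carries that uncertainty. SHLD2 overlaps its exons on the opposite strand, with 4851 and 5341 counts.

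Both aspartate aminotransferases, which pass the amino group of glutamate to oxaloacetate and take part in the malate-aspartate shuttle, were lower with FIN56. GOT1 (ENSG00000120053), the cytosolic enzyme, had an FPKM of 40.07 with DMSO and 34.63 with FIN56, a ratio of 0.864, from 5015 and 4220 counts (count ratio 0.808, 0.776 to 0.842). GOT2 (ENSG00000125166), the mitochondrial enzyme, had an FPKM of 70.87 with DMSO and 58.68 with FIN56, a ratio of 0.828, from 11209 and 9590 counts (count ratio 0.822, 0.8 to 0.845). The differences were moderate, as 27.1% of genes with at least 100 expected counts had an FPKM ratio as low as that of GOT1 or lower, and 22.8% one as low as that of GOT2. The FPKM of GOT2 was 1.77 times that of GOT1 with DMSO and 1.69 times with FIN56, so the pair was lower by a similar factor. The 6 numbered GOT2 pseudogenes held 3 counts with DMSO and 1 with FIN56.

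GLUL (ENSG00000135821), glutamine synthetase, makes glutamine from glutamate and ammonia. Its level was 53.11 FPKM with DMSO and 51.96 FPKM with FIN56 (ratio 0.978), while its expected counts of 6913 and 7386 gave a count ratio of 1.03 (0.993 to 1.06). The direction therefore depended on the measure, and the interval included 1.

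The effective length behind each FPKM was recovered as the expected count over the FPKM and the library total, since RSEM sets it from the mix of transcripts it estimates in each library. It was lower with FIN56 for SLC38A2 (4033 and 3692 bases, a change of -8.46%), GOT1 (1783 and 1668, -6.47%) and SLC38A1 (6275 and 6067, -3.31%). It was higher for GLUL (1855 and 1946, 4.91%) and for SLC1A5 (2486 and 2534, 1.93%). SLC7A5, GLUD1 and GOT2 moved by less than 1%. A shift as large as that of SLC38A2 was present in 18.5% of genes with at least 100 expected counts, and one as large as that of GOT1 in 25.3%. For GLS2 the rounded FPKM values allow 1325 to 1384 bases with DMSO and 1460 to 1511 with FIN56. This was the largest relative change of the 9 genes (9.73%), and it rests on only 21.85 and 31.47 expected counts. The effective length of GLUL was in both libraries below its shortest annotated protein coding transcript of 3942 bases in GENCODE release 44 and far below its canonical transcript of 7554 bases. The deposited lengths rest on the study's own, different annotation, which is not limited to protein coding transcripts. The gap can therefore not be read as a property of GLUL in these cells. The tables hold no values per transcript, so which transcripts lie behind these lengths is not given.

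**Figure D3:**
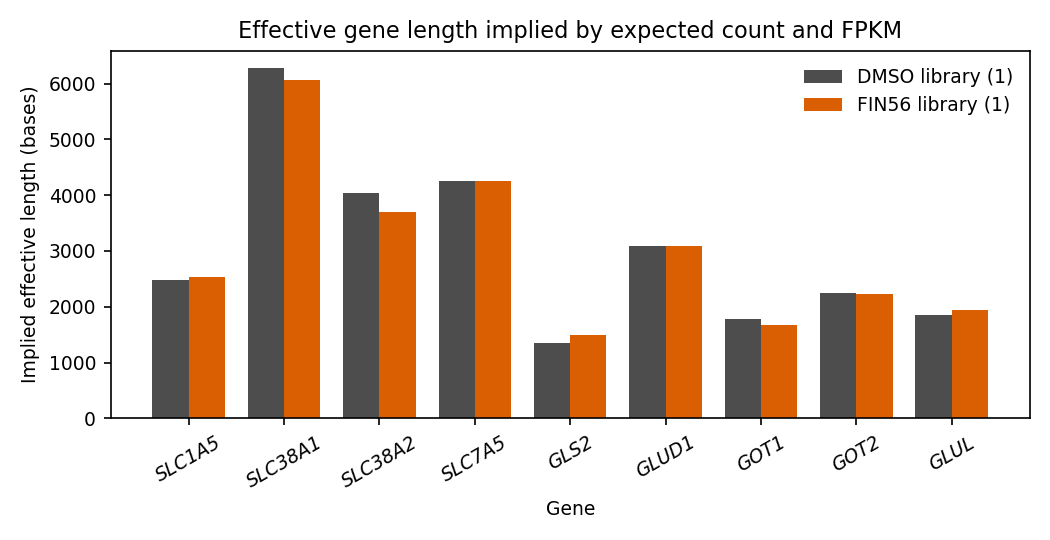
Effective gene length in bases (vertical axis, from 0) implied by expected count, FPKM and library total for the 9 genes in the DMSO and FIN56 libraries, 1 bar per library. In bases the bars of SLC38A2 (4033 and 3692) and SLC38A1 (6275 and 6067) differ most.

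Around the members, 91 further genes of glutamine and glutamate handling were read in 9 lists, and 84 of them were detected in both libraries. Of these, 6 had a ratio of 1.5 or more (7.14%, against 14.7% of all genes) and 8 had a ratio of 1/1.5 or less (9.52%, against 17.3%). Among the 80 with at least 100 expected counts, 5 (6.25%) and 7 (8.75%) did, against 5.37% and 8.85% of all genes of that depth. At matched depth the pathway was thus near the background in both directions. Over the 84 genes there were 42 higher, 42 lower and a median log2 ratio of 0.00.

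**Figure D4:**
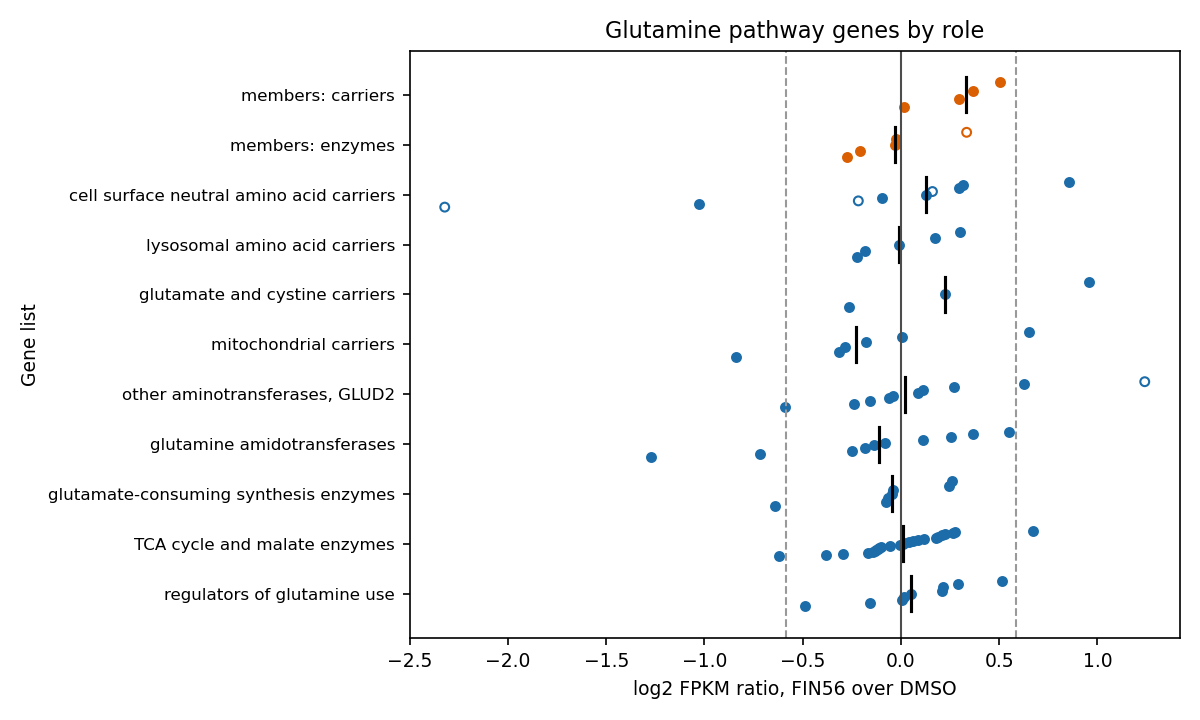
log2 FPKM ratio of FIN56 over DMSO (horizontal axis) for the members (orange) and the pathway lists (blue), 1 point per gene detected in both libraries, open points having fewer than 100 expected counts together, vertical bars marking medians and dashed lines 1.5 and 1/1.5. The member carriers have a median of 0.33 and the mitochondrial carriers one of -0.23.

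Of the other cell surface carriers of neutral amino acids, 9 of 13 were above 0 in both libraries, with a median log2 ratio of 0.13. SLC38A4, a relative of SLC38A1 and SLC38A2, had an FPKM of 0.52 with DMSO and 0.94 with FIN56 (ratio 1.81) from 136 and 254 counts. SLC1A4, the closest relative of SLC1A5 and a carrier of alanine, serine and cysteine, was lower with FIN56, at an FPKM of 2 and 0.98 (ratio 0.49) from 573 and 287 counts (count ratio 0.481, 0.416 to 0.555). SLC38A5 was also at 1/1.5 or less, on only 16 and 4 counts. The lysosomal carriers had 0 of 5 genes past 1.5 in either direction, and ratios from 0.857 to 1.23.

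Of the glutamate and cystine carriers, 3 of 6 were above 0 in both libraries. SLC1A3, a glutamate and aspartate importer, had the highest ratio of this group. Its level was 13.66 FPKM with DMSO and 26.52 FPKM with FIN56 (ratio 1.94) and its counts were 2625 and 6280 (count ratio 2.3, 2.2 to 2.41). SLC7A11, which exports glutamate for cystine, had an FPKM of 9.95 and 11.61 (ratio 1.17). In the mitochondrial membrane, 4 of 6 carriers were lower, beside 46.2% of all genes detected in both libraries. The median log2 ratio of the 6 carriers was -0.23. SLC25A10, the dicarboxylate carrier, had the lowest ratio of these, with an FPKM of 14.37 and 8.03 (ratio 0.559). SLC25A18, a carrier of glutamate, had a ratio of 1.57 at an FPKM of 0.28 and 0.44.

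The other glutamate dehydrogenase and aminotransferase genes had 2 of 10 at 1.5 or more and 1 at 1/1.5 or less. KYAT3 had an FPKM of 16.2 with DMSO and 25.03 with FIN56 (ratio 1.55), and its relative KYAT1 4.82 and 3.2 (ratio 0.664). GPT had a ratio of 2.36 on 12.33 and 24 counts, with a count interval of 0.924 to 4.22 that included 1. GPT2, the mitochondrial alanine aminotransferase, was slightly lower at an FPKM of 8.49 and 7.61 (ratio 0.896), with a count ratio of 0.911 (0.854 to 0.972).

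Among the 10 enzymes that use the amide of glutamine, 0 were at 1.5 or more and 2 at 1/1.5 or less. ASNS, asparagine synthetase, had an FPKM of 51.7 with DMSO and 21.43 with FIN56 (ratio 0.415) from 5678 and 2466 counts (count ratio 0.417, 0.398 to 0.437). NADSYN1, which makes NAD, had an FPKM of 40.29 and 24.51 (ratio 0.608). Among 7 enzymes that build on glutamate, PYCR1 of proline synthesis was the only one past the threshold, at an FPKM of 11.51 and 7.37 (ratio 0.64). Of 25 TCA cycle and malate enzymes, SUCLA2, a subunit of succinyl-CoA synthetase, had an FPKM of 33.6 and 53.63 (ratio 1.6). Its count ratio of 1.45 (1.39 to 1.504) was below 1.5. IDH1, the cytosolic isocitrate dehydrogenase, had an FPKM of 38.27 and 24.91 (ratio 0.651). The other 23 were within 1.5 times. Of 9 regulators of glutamine use, 0 were past 1.5 in either direction. Their ratios ran from 0.714 to 1.43.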

How the data were processed

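RNA-seq tables of 2 HSC-3 libraries were used, 1 per condition. The submitters' processing notes name FastQC 0.11.7, STAR 2.6.1a, RSEM 1.3.1 and GRCh38, used for quality control, alignment and counting in the study's methods, which are written for tumor RNA. The authors gave unscaled expected counts, rounded here to whole numbers for intervals. Deposited FPKM is scaled for depth and effective length, to 2 decimals. Deposited TPM is scaled to 1 common total in each library. Deposited rlog is a log2 scale from DESeq2 1.26.0. All 8 columns were matched by name.

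FPKM ratios were compared with 1.5, the study's threshold for higher genes, and with its inverse, for genes above 0 in both libraries. Intervals were exact Clopper-Pearson (95%) from total counts of 70184517 and 73062209. Alternatives were TPM, rlog, counts scaled by totals, by edgeR (4.0.16) TMM or by DESeq2 (1.42.0) median-of-ratios, pseudocounts of 0.1 and 1 FPKM, filters, and thresholds of 1.2 and 2. Steps were tested on simulated counts with read sampling as the only spread and with changes larger than any member showed. Differences between cultures and in effective length were not simulated. The members and lists were chosen with earlier results of these data known. Genes named are the members, 5 fixed pathway genes, pathway genes past 1.5 with at least 100 counts, and, chosen after their values were seen, GPT, SLC38A5 and genes overlapping members. Overlapping genes came from GENCODE release 44. Protein sequences were not used here, and some single genes of the pathway are not reported here. Python 3.11.15, scipy 1.17.1 and R 4.3.3 were used.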

Additional observations from a re-analysis of the deposited data

How the results depend on the processing

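No paired analysis was possible because the comparison rests on a single library on each side, and no library could be left out. Depth limits GLS2 and the rarest pathway genes, and the spread between cultures limits all other ratios. The count of members at 1.5 or more and at 1/1.5 or less was 0 under each other scaling, pseudocount and filter, and at a threshold of 1.2 it was 4 and 1. A filter or an added pseudocount could not raise a member count of 0, so those settings carry no information on it. With TMM, median-of-ratios or library totals, 5 pathway genes were at 1.5 or more and 9 at 1/1.5 or less. The 6 pathway genes at 1.5 or more by FPKM became 0 with rlog values, 3 after adding 1 FPKM and 3 among genes reaching 1 FPKM in each library. They became 1 at a threshold of 2 and 16 at 1.2. The 8 at 1/1.5 or less became 0 with rlog values, 5 after adding 1 FPKM, 3 at a threshold of 2 and 14 at 1.2. The rlog transformation draws the libraries together, and an added pseudocount pulls each ratio toward 1. A higher threshold or fewer genes lower a count by construction. The median log2 ratio of the members was 0.015. It was 0.074 with DESeq2 median-of-ratios and reversed to -0.0061 among members reaching 1 FPKM in each library, which removes GLS2. GLUD1 (-0.027) reversed to 0.0043 with TPM, 0.0050 with rlog values and 0.011 with median-of-ratios. GLUL (-0.032) reversed to 0.032 with rlog values, 0.035 with TMM, 0.074 with median-of-ratios and 0.038 with library totals, so neither gene has a settled direction. The other 7 members kept their direction under each of the 7 alternatives to the FPKM ratio, of which the added pseudocounts cannot change a direction. They include GLS2, whose counting interval included 1, and SLC7A5, whose ratio of 1.01 is below what the scaling can resolve. The log2 ratio of SLC38A2 (0.30) ran from 0.09 with rlog values to 0.33 with TPM and was 0.17 with TMM or library totals, a fold below 1.2. The fold of SLC38A1 ran from 1.16 (rlog) to 1.45 (TPM), that of SLC1A5 from 1.14 to 1.35, that of GOT1 from 0.807 to 0.925 and that of GOT2 from 0.821 to 0.93.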

Other observations

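SLC38A1, SLC38A2 and SLC38A4 lie in that order within 649 kb of chromosome 12 (GRCh38, GENCODE release 44), and the 3 were higher in the FIN56 library by FPKM, at ratios of 1.42, 1.23 and 1.81. They are the only protein coding genes of that stretch with a row in the tables. Their levels were far apart, with SLC38A4 at an FPKM of 0.52 with DMSO and 0.94 with FIN56. The long non-coding genes of the stretch were not uniformly higher. SLC38A4-AS1 had 110 counts with DMSO and 156 with FIN56, whereas ENSG00000272369 had 36 and 25 and ENSG00000275481 had 30 and 16. The stretch was chosen after the values had been seen, and nothing was tested on it.

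ASNS, SLC1A4 and PYCR1, which are commonly listed as targets of the stress factor ATF4, had FPKM ratios of 0.415, 0.49 and 0.64, while the transcript of ATF4 itself had an FPKM of 251 with DMSO and 225 with FIN56 (ratio 0.895). SLC7A5, SLC3A2, SLC38A2 and SLC7A11, also commonly listed among its targets, had ratios of 1.01, 1.09, 1.23 and 1.17. These genes were set side by side after their values had been seen and are not a full list of ATF4 targets. ATF4 protein was not measured, and no cause was tested.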
